A study of Rattus norvegicus with 12 samples.

Results

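The 30 genes described here make, regulate or remove cholesterol and fatty acids: 5 regulators of the sterol response element binding proteins (SREBPs), 16 enzymes of the sterol pathway, 7 enzymes of fatty acid synthesis and desaturation, and 2 genes of cholesterol efflux and turnover. They were taken by symbol from a deposited table of 26949 rat genes, each symbol matched 1 row, and all 30 passed the filter on low counts that left 17935 genes. The RNA came from hippocampus of male rats kept for 4 weeks either in normoxia (control) or under chronic intermittent hypoxia (CIH), an exposure in which oxygen is lowered and restored over and over. Each group had 3 RNA libraries and 3 small RNA libraries. The labels name no strain, age, genotype or separate animals, so the tests below measure the spread between these libraries, which may be technical.

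RNA libraries held 17170943 to 21941173 estimated counts, with the lowest total in CIH replicate 1, and small RNA libraries 4681163 to 4914232 counts. CIH replicate 1 also stood apart in expression: it was the highest of the 6 libraries for 25.7% of all tested genes and the lowest for 25.6%, against 13.3% to 16.3% in the other 5. All 6 markers used to check the tissue, among them the dentate gene Prox1 and the CA1 gene Wfs1, were detected in every library. Their summed level ran from 741 to 1583 CPM (the count scaled to a common library total, with TMM adjustment) in control and from 720.1 to 1440 CPM in CIH. In CIH replicate 1, 4 of the 6 were at their lowest. Prox1 stood there at 28.9 CPM against 108 to 420 CPM in the other 5, and C1ql2 at 6.33 CPM against 14.8 to 31.1 CPM. Fibcd1 stood there at 53.2 CPM against 150 to 348 CPM, and Grik4 at 39.0 CPM against 61.5 to 114 CPM. Wfs1, which made up most of the summed level there at 525 CPM, and Neurod6 were lowest in control libraries.

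Cells sense cholesterol in the membrane of the endoplasmic reticulum. When it is scarce, the escort protein SCAP carries the SREBPs to the Golgi, where they are cut and released as transcription factors for the sterol and fatty acid genes, and when it is plentiful the INSIG proteins hold SCAP back. The brain makes its own cholesterol because lipoproteins do not cross the blood-brain barrier, much of that cholesterol lies in myelin, and neurons clear the excess by turning it into 24-hydroxycholesterol.

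None of the 30 genes passed the test between CIH and control. Their log2 fold changes (CIH over control) lay between -0.41 and 0.24, with 17 above 0 and 13 below, and the median was 0.01, beside 0.00 over all genes tested, of which 50.6% lay above 0. On the authors' TPM (a level per transcript length) the split was 14 above and 16 below. The edgeR quasi-likelihood test, adjusted by Benjamini-Hochberg over all 17935 genes, gave adjusted p = 1.00 for each of the 30, and it called 0% of all genes. At an unadjusted p under 0.05 there were 0 of the 30 and 1.78% of all genes. DESeq2, limma on TPM and each fit without 1 library also called 0 of the 30. Without CIH replicate 1, the library that stood apart, 15 log2 fold changes lay above 0 and 15 below. For 29 genes the 95% confidence interval of the fold change lay within 1 log2 unit of 0 on both sides, and for 23 within 0.5, so a doubling or halving lies outside the interval of every gene but Mvd.

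**Figure D1:**
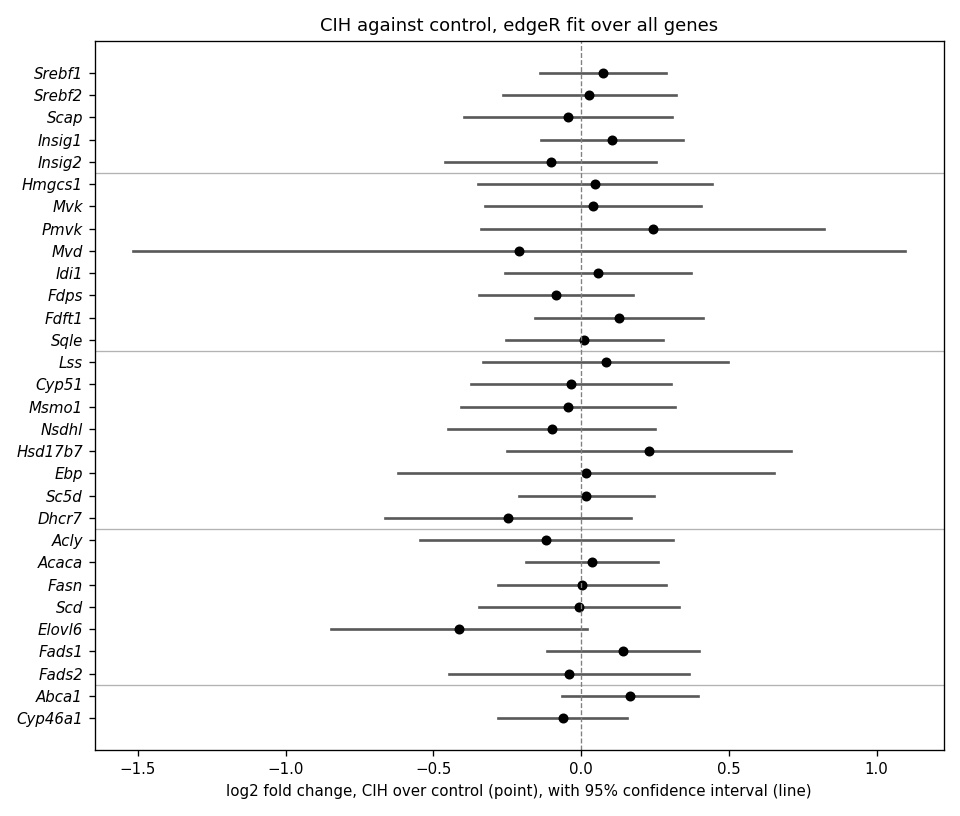
Log2 fold change of CIH over control for each of the 30 genes (points) with the 95% confidence interval from the edgeR fit (lines), ordered by role and separated by grey lines. All 30 intervals cross 0, Elovl6 only just, and Mvd has the widest.

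The genes were also steady from library to library. The median coefficient of variation over the 6 libraries was 11.3% for the 30 genes and 16.4% for all genes tested. These sets were not matched for level. The median was 11.7% for the other lipid synthesis genes described below. It was 11.2% for the cholesterol transport list and 10.2% for the fatty acid oxidation list, so the 30 genes do not stand apart from these lists. The 30 genes ranged from 3.82% for Cyp46a1 to 50.02% for Mvd. The groups did not overlap in CPM for 3 of the 30 (Srebf1 and Abca1 higher, Elovl6 lower in CIH) and for 5.7% of all genes, 3.05% with CIH higher and 2.65% with CIH lower. A count of 3 is too small to set the 30 genes apart from that share.

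Among the regulators, Srebf2, whose product drives the cholesterol genes, was the most abundant of the 30 at a mean of 198 TPM. It stood at 471, 520.1 and 519 CPM in control replicates 1, 2 and 3 and at 483, 571 and 485 CPM in CIH replicates 1, 2 and 3. CIH replicate 2 was the highest library and the other two CIH libraries lay within the control range, and the log2 fold change was 0.03 (SE 0.12). Srebf1, whose product leans towards the fatty acid genes, had a mean of 49.7 TPM and every library of it lay below every library of Srebf2 on that scale.

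Srebf1 stood at 99.95, 99.2 and 91.4 CPM in control and at 104, 101 and 101 CPM in CIH. All 3 CIH libraries were higher, but the lowest of them (100.6 CPM) and control replicate 1 (99.95 CPM) were less than 1 CPM apart, and in TPM the groups overlapped. The log2 fold change was 0.08 (SE 0.09, 95% interval -0.14 to 0.29).

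The retention factor Insig1 is itself an SREBP target and so reads out the pathway, while Insig2 is less tied to it. Insig1 stood at 44.7, 47.6 and 50.3 CPM in control and 55.2, 48.8 and 49.4 CPM in CIH (log2 fold change 0.10, SE 0.10). Insig2 stood at 28.5, 21.6 and 22.9 CPM in control and 21.8, 20.7 and 25.3 CPM in CIH (log2 fold change -0.10, SE 0.15). CIH replicate 1 was the highest library for Insig1 and control replicate 1 for Insig2, and the groups overlapped for both. The escort gene Scap had a log2 fold change of -0.05 (SE 0.15), with its lowest value, 141 CPM, in CIH replicate 1 and its highest, 204 CPM, in CIH replicate 2.

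**Figure D2:**
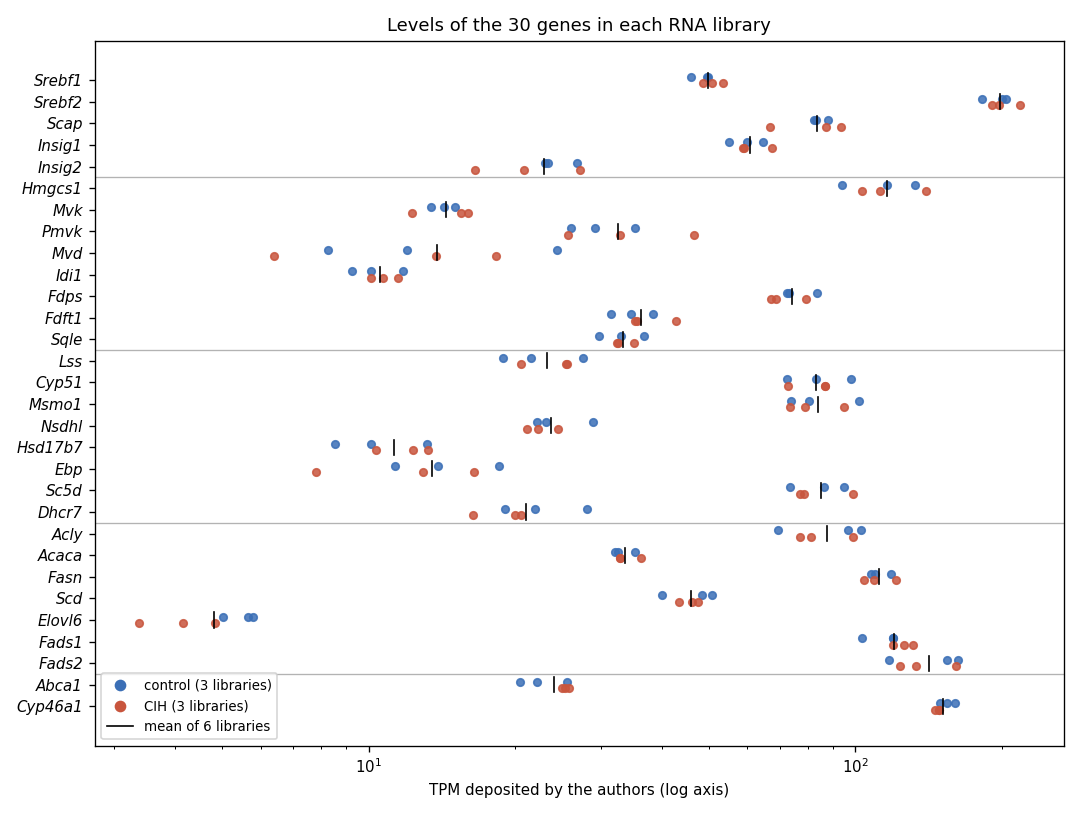
TPM of each gene in each RNA library on a log axis, with controls in blue, CIH in red and the mean of 6 libraries as a black line. The genes span 4.80 TPM (Elovl6) to 198 TPM (Srebf2), and the blue and red points do not overlap for only Elovl6 and Cyp46a1.

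The mevalonate enzymes build the isoprenoid units that become squalene. Hmgcs1, which makes HMG-CoA, was the most abundant of these 8 genes at 116 TPM. It stood at 155, 190 and 214 CPM in control and at 225, 185 and 167 CPM in CIH. Both groups ran over nearly the same range, and the log2 fold change was 0.05 (SE 0.17). Fdft1, the squalene synthase, stood at 49.9, 55.0 and 59.8 CPM in control and 67.0, 57.7 and 55.2 CPM in CIH (log2 fold change 0.13, SE 0.12). Fdps, which makes farnesyl diphosphate, stood at 41.0, 41.5 and 46.7 CPM in control and 44.2, 39.9 and 37.6 CPM in CIH (log2 fold change -0.09, SE 0.11).

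Pmvk, the phosphomevalonate kinase, had the highest fold change of the 30, 0.24 (SE 0.25), which rested on 1 library. It stood at 11.3, 10.2 and 9.27 CPM in control and at 16.5, 11.4 and 8.65 CPM in CIH, so CIH held both the highest and the lowest value, and without CIH replicate 1 the log2 fold change was -0.04. The isomerase gene Idi1, the mevalonate kinase gene Mvk and the squalene epoxidase gene Sqle had log2 fold changes of 0.06 (SE 0.13), 0.04 (SE 0.15) and 0.01 (SE 0.11).

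Mvd, which decarboxylates mevalonate diphosphate, was poorly measured. It had 14, 21 and 47 counts in control and 21, 35 and 11 in CIH, the fewest of the 30 genes, while the next enzyme, Idi1, had 260 to 349. The length that relates its deposited counts to its FPKM was 156 to 169 bases, shorter than for any other of the 30 genes. The next shortest, Ebp, had 444 bases in its lowest library. The count of Mvd may thus rest on a short stretch of transcript, which cannot be checked because the annotation is not stated. Its log2 fold change was -0.21 with an interval of -1.52 to 1.10, the widest of the 30, and its counts spread widely within both groups. Over the 8 genes of this branch, 6 log2 fold changes lay above 0 and 2 below, and the median was 0.04. That split rested on single libraries: it was 3 and 5 (median -0.02) without CIH replicate 1, 4 and 4 (-0.03) without control replicate 1, and 7 and 1 (0.15) without control replicate 3.

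The 8 enzymes from lanosterol to cholesterol are the lanosterol synthase Lss and enzymes that remove methyl groups or change double bonds on the sterol ring. Of their log2 fold changes 4 lay above 0 and 4 below, and the median was -0.01. The split was 6 and 2 without control replicate 3, and 2 and 6 both without control replicate 2 and on TPM (limma). Sc5d, a sterol desaturase, was the most abundant at 84.8 TPM and one of the steadiest, at 115, 124 and 130.0 CPM in control and 124, 121 and 128 CPM in CIH. Its log2 fold change was 0.02 (SE 0.10). Dhcr7, which performs the last step to cholesterol on one branch, stood at 23.6, 27.0 and 34.5 CPM in control and 20.6, 26.6 and 24.5 CPM in CIH. The log2 fold change of Dhcr7 was -0.25 (SE 0.18, 95% interval -0.67 to 0.17), and control replicate 3 was its highest library, without which the value was -0.08.

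Hsd17b7, a ketosteroid reductase, stood at 8.25, 11.3 and 13.9 CPM in control and 13.1, 12.4 and 13.8 CPM in CIH (log2 fold change 0.23, SE 0.20). Controls 1 and 2 lay below all 3 CIH libraries and control 3 above them. Without control replicate 1 the value was 0.05, and without control replicate 3 it was 0.42. Nsdhl, which helps take off the methyl groups at carbon 4, stood at 21.0, 21.7 and 27.1 CPM in control and 21.0, 24.3 and 19.9 CPM in CIH (log2 fold change -0.10, SE 0.15). The remaining genes, the lanosterol synthase Lss (0.08, SE 0.17), the demethylase Cyp51 (-0.03, SE 0.14), the methyl oxidase Msmo1 (-0.04, SE 0.15) and the isomerase Ebp (0.02, SE 0.27), had log2 fold changes near 0. Ebp lay on the other side of 0 in TPM, at -0.23 for the log2 ratio of group means, and the length that relates its counts to its FPKM ran from 444 to 836 bases between libraries.

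The gene with the smallest p of the 30 was a fatty acid enzyme. Elovl6, which lengthens palmitate to stearate, was the least abundant of the 30 at 4.80 TPM and stood at 6.95, 6.19 and 6.999 CPM in control and at 5.04, 4.22 and 5.87 CPM in CIH. Every CIH library was lower than every control, in CPM and in TPM. The log2 fold change was -0.41 (SE 0.18, 95% interval -0.85 to 0.02), with an unadjusted p of 0.0587 and adjusted p = 1.00 in edgeR. It kept its sign in all 12 alternatives, between -0.54 (without CIH replicate 3) and -0.30 (without CIH replicate 2). Because the groups did not overlap, leaving out 1 library could hardly change the sign of Elovl6. Without CIH replicate 3 its unadjusted p was 0.0367, and the edgeR adjusted p stayed at 1.00. Elovl6 counts were 89 to 151 per library. Before rounding, Elovl6 was one of 5 genes (with Insig1, Scd, Lss and Fads2) whose estimated counts were not whole, as happens when reads are shared out between similar genes, and these 5 are uncertain to that extent.

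The desaturases place double bonds in fatty acids. Fads2, which starts the path to long polyunsaturated fatty acids, was the most abundant of this group at 142 TPM, and stood at 87.6, 115 and 120 CPM in control and at 98.1, 124 and 91.0 CPM in CIH. Its log2 fold change was -0.04 (SE 0.17). Fads1, which acts later on the same path, stood at 199, 173 and 194 CPM in control and 215, 215 and 195 CPM in CIH (log2 fold change 0.14, SE 0.11). Only control replicate 1 lay inside the CIH range for Fads1. Scd, one of the rat stearoyl-CoA desaturases, had a log2 fold change of -0.01 (SE 0.14).

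Acly, which supplies cytosolic acetyl-CoA to both pathways, stood at 154, 213 and 219 CPM in control and 167, 212 and 161 CPM in CIH (log2 fold change -0.12, SE 0.18). Its libraries fell into 3 high and 3 low values that cut across the groups, and its value was -0.03 without control replicate 3 and -0.26 without control replicate 1. The carboxylase gene Acaca and the fatty acid synthase gene Fasn, the committed step and the synthase itself, had log2 fold changes of 0.04 (SE 0.09) and 0.00 (SE 0.12). In this group 3 of 7 fold changes lay above 0 and the median was -0.01, while without control replicate 3 the split was 5 above and 2 below and with CIH replicate 2 left out 2 and 5.

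The transporter gene Abca1 loads cholesterol onto apolipoproteins for efflux. It stood at 104, 108 and 118 CPM in control and 127, 118 and 125 CPM in CIH. All 3 CIH libraries were higher, though CIH replicate 2 (118.1 CPM) was barely above control replicate 3 (117.8 CPM), and in TPM the groups overlapped. The log2 fold change was 0.17 (SE 0.10, 95% interval -0.06 to 0.40). Cyp46a1, the neuronal cholesterol 24-hydroxylase, was the second most abundant of the 30 at 151 TPM and the steadiest, at 158, 170 and 161 CPM in control and 153, 161 and 155 CPM in CIH (log2 fold change -0.06, SE 0.09). In CPM the groups overlapped for Cyp46a1, while in TPM every CIH library was lower (log2 ratio of group means -0.07).

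The extremes of these genes lay often in the same few libraries. Control replicate 3 was the highest library for 13 of the 30 genes, where it was the highest for 15.9% of all genes, and the 13 included 6 of the 8 enzymes from lanosterol to cholesterol (Cyp51, Msmo1, Nsdhl, Hsd17b7, Sc5d and Dhcr7) and 4 of the 8 mevalonate genes. Control replicate 1 was the lowest for 10 of the 30 and CIH replicate 3 for 7, beside 16.3% and 13.8% of all genes. Without control replicate 3, 22 of the 30 log2 fold changes lay above 0 and 8 below, with a median of 0.06, and without CIH replicate 2 the split was 13 and 17 with a median of -0.04.

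**Figure D3:**
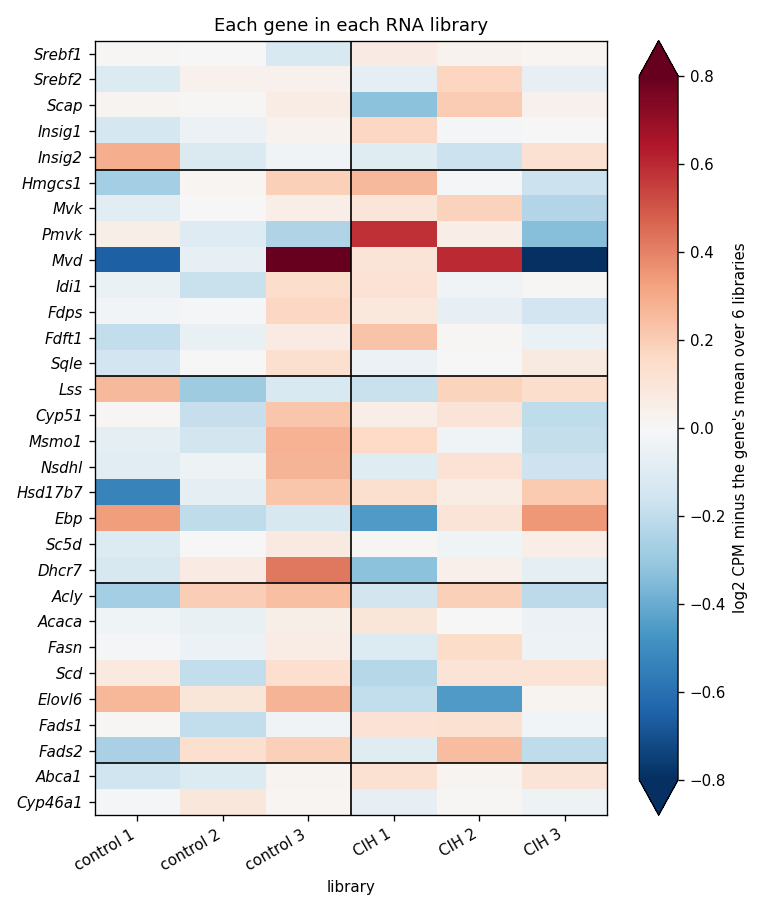
Log2 CPM of each gene in each RNA library, minus the gene's mean over the 6 libraries, with roles separated by black lines and the groups by a vertical line. Control replicate 3 is red for most sterol enzymes, and no column block separates control from CIH.

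A list score, the mean log2 CPM of a list's genes minus their mean over the 6 libraries, gives the libraries by role. The mevalonate score was 0.18 in control replicate 3, 0.18 in CIH replicate 1 and 0.09 in CIH replicate 2, and -0.17 in control replicate 1, -0.05 in control replicate 2 and -0.22 in CIH replicate 3. The regulators moved less, between -0.05 and 0.04.

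Markers of myelinating oligodendrocytes, the cells with the heaviest demand for cholesterol, differed far more between libraries. Their scores were 0.54, -0.58 and -0.55 in control and -0.06, 0.05 and 0.60 in CIH. The libraries with the highest myelin scores, control replicate 1 and CIH replicate 3, had the lowest mevalonate scores, and control replicate 3, with a low myelin score, had the highest, while control replicate 2, with the lowest myelin score, lay between at -0.05. The lanosterol branch went otherwise: its control libraries scored -0.04, -0.11 and 0.15 and its CIH libraries -0.09, 0.07 and 0.01, with the lowest score in control replicate 2. All 12 myelin genes had a log2 fold change above 0, none past the test, with a summed level of 3233 to 7799 CPM in control and 5122 to 7920.3 CPM in CIH. The part of cell makeup in the sterol genes' values was not tested, and in bulk RNA fewer cells of a type and less RNA per cell cannot be told apart.

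Markers of endothelium and pericytes were also given by library. All 8 had a log2 fold change above 0 and none passed the adjusted test. In edgeR 2 of 8 (Flt1 and Slco1a4, named after their values were seen) had an unadjusted p under 0.05, beside 1.78% of all genes. In CPM 3 of 8 (those and Pecam1) were without overlap, CIH higher, beside 3.05% of all genes. For Flt1 the groups overlapped in TPM. Their scores were -0.16, -0.07 and -0.13 in control and 0.45, -0.03 and -0.06 in CIH, and their summed level was 273, 278 and 269 CPM in control and 395, 314 and 294 CPM in CIH, so the groups did not overlap. The summed TPM values did overlap, since control replicate 1 (428 TPM) lay above CIH replicate 3 (395 TPM). Each of the 8 had its highest CPM in CIH replicate 1. That library was the highest for 7 of the 30 lipid genes, among them Hmgcs1, Insig1, Fdft1 and Abca1, a share no larger than the 25.7% of all genes. The astrocyte scores ran from -0.08 to 0.07 in control and from -0.10 to 0.17 in CIH. The part of these cells in the result was not tested.

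**Figure D4:**
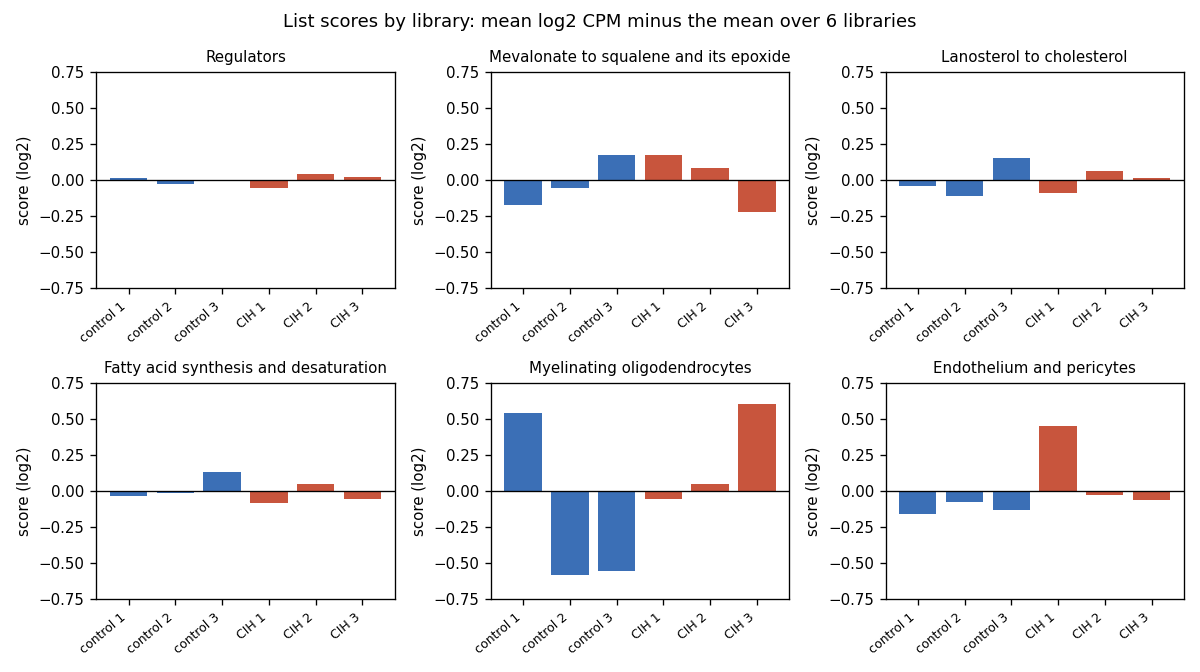
List scores (mean log2 CPM minus the mean over 6 libraries) by library for 4 roles and 2 marker lists, with controls in blue and CIH in red. The lipid gene scores stay within 0.22 of 0, while the myelin scores reach 0.60 and the endothelial score of CIH replicate 1 reaches 0.45.

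SREBPs act at the promoters of the sterol enzymes, so 3 of these promoters are shown, that of Hmgcs1 from the start of the pathway and those of Msmo1 and Nsdhl from its later steps. The windows are the 250 bases before the RefSeq start site (GRCr8 assembly), in lower case, with the NF-Y box CCAAT on either strand in capitals. NF-Y is a general factor that works beside SREBPs at many sterol promoters.
Hmgcs1, chr2:53382054-53382303, plus strand: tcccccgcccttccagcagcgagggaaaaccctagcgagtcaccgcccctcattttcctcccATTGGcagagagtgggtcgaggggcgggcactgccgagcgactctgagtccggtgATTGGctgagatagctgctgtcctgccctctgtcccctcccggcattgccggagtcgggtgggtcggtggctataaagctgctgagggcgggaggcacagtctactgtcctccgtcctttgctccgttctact
Msmo1, chr16:29746863-29747112, plus strand: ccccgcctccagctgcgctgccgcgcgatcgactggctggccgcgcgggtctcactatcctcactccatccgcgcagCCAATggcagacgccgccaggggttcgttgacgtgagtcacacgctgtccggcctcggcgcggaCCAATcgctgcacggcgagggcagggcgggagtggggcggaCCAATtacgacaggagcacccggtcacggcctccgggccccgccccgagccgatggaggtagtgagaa
Nsdhl, chrX:155817110-155817359, plus strand: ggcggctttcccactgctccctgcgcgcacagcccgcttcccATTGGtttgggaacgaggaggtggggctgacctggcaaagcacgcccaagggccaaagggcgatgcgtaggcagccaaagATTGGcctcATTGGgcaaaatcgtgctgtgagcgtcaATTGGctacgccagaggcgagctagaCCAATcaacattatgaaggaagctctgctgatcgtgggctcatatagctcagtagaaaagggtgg

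Hmgcs1 held 2 such boxes, Msmo1 3 and Nsdhl 5. Of the other sterol enzymes with a window, Cyp51 and Dhcr7 held 0, and Lss, Mvd and Sc5d held 1 each. Ebp, Fdps and Idi1 held 2 each, Hsd17b7 held 3 and Mvk held 5. Of the 24 genes with a RefSeq window, 18 (75%) held at least 1 CCAAT on either strand, where 34% of 33469 windows of the same length did. The Sp1 box GGGCGG, on either strand, was in 20 of the 24 (83.3%) and in 30.5% of all windows. The 24 were counted by gene, with a match in any window of the gene, and the background by window. The windows were not matched for base content or expression, so these shares are not like for like. The letters TCACNCCAC, a form of the sterol response element, were in 0 of the 24 and in 0.974% of all windows, which says only that these letters are not in these windows. These matches are descriptions of sequence. No measurement here shows a factor bound at them.

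Srebf2 carries a microRNA within its own gene, and the small RNA libraries give its level. The RefSeq hairpin of miR-33 lies inside Srebf2, and miR-33 is known to repress Abca1. Both arms are shown with the seed (bases 2 to 8) in capitals, with the pair miR-27a and miR-27b, which share a seed and are also known to act on lipid genes.
miR-33-5p: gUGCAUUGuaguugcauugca
miR-33-3p: cAAUGUUUccacagugcauca
miR-27a-3p: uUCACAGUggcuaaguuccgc
miR-27b-3p: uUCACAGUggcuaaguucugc

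The 5p arm of miR-33 had 6562, 1913 and 14903 counts in control and 24655, 9163 and 24936 in CIH. Control replicate 3 lay above CIH replicate 2, so the groups overlapped. The log2 fold change of miR-33-5p was 1.31 (SE 0.74, 95% interval -0.47 to 3.08). It was 0.87 without control replicate 2 and 2.10 without control replicate 3. It did not pass the edgeR test over 715 miRNAs, which called 0% of them (adjusted p = 0.969). The 3p arm had 97, 103 and 65 counts in control and 209, 88 and 134 in CIH, where control replicate 3, the highest control of the 5p arm, was the lowest library, and a log2 fold change of 0.67 (SE 0.38, adjusted p = 0.969 in edgeR), which was 0.33 without CIH replicate 1 and 0.45 without control replicate 3. Over the 6 libraries the coefficient of variation was 68.1% for miR-33-5p and 40.5% for miR-33-3p, against 7.26% for the Srebf2 mRNA in its own set of libraries.

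**Figure D5:**
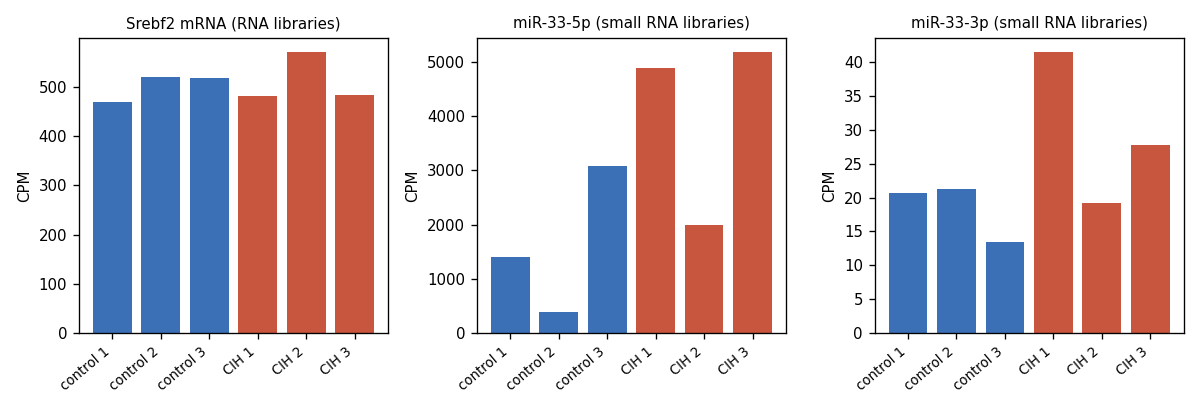
CPM of the Srebf2 mRNA in the RNA libraries and of both arms of miR-33 in the small RNA libraries, with controls in blue and CIH in red. Srebf2 stays between 471 and 571 CPM, while miR-33-5p runs from 395 to 5179 CPM.

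The 4 lowest libraries of miR-27a-3p were those of miR-33-5p, in the same order. It had 2851, 1272 and 11409 counts in control and 28126, 4228 and 17235 in CIH (log2 fold change 1.64, SE 0.95, adjusted p = 0.969 in edgeR), again with overlap. Without CIH replicate 1 the value of miR-27a-3p was 1.08, and without control replicate 3 it was 2.90. miR-27b-3p, which differs from it by 1 base (C19U, counted from the 5′ end, miR-27a-3p first), had 18064, 13838 and 17771 counts in control and 21488, 17544 and 21956 in CIH, and varied by 15.1% against 93.0% for miR-27a-3p. Reads of such near-identical miRNAs may be split between them, so each is uncertain singly. Of 17 miRNAs listed for their ties to cholesterol, 0 passed the edgeR test and 0 had an unadjusted p under 0.05, beside 2.38% of all miRNAs, and the groups overlapped for each of the 17, where they did not for 7.69% of all miRNAs (4.2% with CIH higher and 3.5% with CIH lower). In simulated counts the miRNA test called 0% of miRNAs changed by 2 log2 units. The 95% intervals reached past 2 log2 units for miR-33-5p, miR-27a-3p and miR-144-3p, while that of miR-26a-5p, for instance, was -0.22 to 0.22.

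Other genes of lipid metabolism were listed for comparison. Of 23 further synthesis genes 21 were tested, with 14 log2 fold changes above 0, 7 below and a median of 0.07, and none passed the test. On TPM (limma) the split was 12 and 9 with a median of 0.01, and without control replicate 2 it was 11 and 10 with a median of 0.03. The groups did not overlap in CPM for 4 of these 21, all higher in CIH, beside 3.05% of all genes in that direction. They were Lbr, a sterol reductase of the nuclear envelope (0.39, SE 0.17), the sterol carrier gene Stard4 (0.37, SE 0.18), and, chosen after their values were seen, the fatty acid elongation gene Tecr (0.12, SE 0.09) and the main brain desaturase gene Scd2 (0.17, SE 0.14). CIH replicate 1 was the highest library for 11 of the 21, and without it Stard4 stood at 0.16 and Lbr at 0.27. Scd2 had a mean of 1033 TPM, against 46.0 TPM for Scd. In TPM the groups overlapped for Scd2, with control replicate 1 at 1066 TPM above CIH replicate 2 at 1050 TPM. Elovl1, which lengthens very long chains, stood at 0.24 (SE 0.16), with overlap.

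Of 22 genes of cholesterol transport, storage and oxysterols 21 were tested, 11 above 0 and 10 below with a median of 0.01 (9 and 12 on log2(TPM + 1)). In edgeR 1 of the 21 had an unadjusted p under 0.05, beside 1.78% of all genes. This was Cyp27a1, the sterol 27-hydroxylase, at 2.48, 1.70 and 2.13 CPM in control and 3.53, 2.70 and 3.69 CPM in CIH (log2 fold change 0.65, SE 0.25, adjusted p = 1.00 in edgeR). Its counts were low, at 34 to 73 per library. The lysosomal cholesterol transporter gene Npc1 stood at 0.27 (SE 0.20) and the lipoprotein receptor gene Lrp8 at -0.18 (SE 0.14), both with overlap. Of 14 fatty acid oxidation genes 7 lay above 0 and 7 below, with a median of -0.01. The acyl-CoA dehydrogenase genes Acadl and Acadvl stood at 0.15 (SE 0.14) and 0.12 (SE 0.12) and the dienoyl-CoA reductase gene Decr1 at -0.18 (SE 0.19). None of these genes passed the edgeR test over all genes.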

How the data were processed

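The RNA table deposited by the authors gives, per the file headers, estimated counts, TPM and FPKM per gene for 6 libraries, and the small RNA table gives counts and a normalized value. That deposited value is each count divided by 1 number per library; it is treated here as of RPM type, but what the number stands for is not stated. Tools named in the submitters' processing notes were RSEM 1.2.12, HISAT2 2.2.0 and Bowtie2 2.2.5, and the genome named there was Rnor_6.0; neither the use of each tool nor the annotation or strand setting is stated in the sources at hand. The deposited estimated counts held 16.0% of values with a fraction, and each value was rounded. Libraries were grouped by title. Counts were tested with edgeR 4.0.16 (TMM, filterByExpr, quasi-likelihood F test) in R 4.3.3, with Benjamini-Hochberg adjustment over all 17935 genes or 715 miRNAs and a threshold of 0.05. The SE comes from the fold change and F, and the 95% interval from the SE and the fit's degrees of freedom. Levels between genes used the TPM made by the authors. The length behind a count was read as count over FPKM and library total, both deposited by the authors. Log2 CPM used a prior count of 2. Promoter windows matched 24 of 30 genes and mature sequences 17 of 17 miRNAs in RefSeq tables (GRCr8).

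The genes and lists were chosen with earlier results of these data known. Values in every library are given for the 3 genes with the smallest p and the most abundant gene of each role, for genes without overlap between the groups, for both arms of miR-33 and the 3 miRNAs with the smallest p, and fold changes for the 3 smallest p of each other list. Scap, Mvd, Cyp27a1 and miR-27b-3p have library values chosen after they were seen. On simulated RNA counts over 17935 genes, the fit called 23% of 100 genes given a change of 1 log2 unit and 77% of 100 given 2, with 11 false calls. Over 715 simulated miRNAs it called 0% of 25 given 1 log2 unit and 0% of 25 given 2, so the miRNA test can miss large changes. Every pair of RNA libraries differed by more than sampling noise, with a chi-square per degree of freedom of 6.67 or more. Alternatives were RLE normalization, no filter, DESeq2 1.42.0, limma 3.58.1 on log2 of TPM (pseudocounts 1 and 0.1, mean TPM of at least 0.5) or of the authors' RPM-type value (pseudocount 1), the replicate block, and leaving out each library. Figures used matplotlib 3.10.9.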

Additional observations from a re-analysis of the deposited data

How the results depend on the processing

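In the edgeR fit 0 genes and 0 miRNAs were called. DESeq2 called 10 genes and 2 miRNAs, limma on log2(TPM + 1) 1 gene, limma on log2(TPM + 0.1) 3 genes, limma on the normalized small RNA value 2 miRNAs, and the fit with no low-count filter 2 miRNAs. Leaving out 1 library at a time gave 0 to 1 genes and 0 to 1 miRNAs, with the 1 in each assay found without control replicate 3 and without CIH replicate 2. None of the 30 genes was among those called, and their median log2 fold change lay between -0.04 (without CIH replicate 2) and 0.06 (without control replicate 3). In 11 of the 30 genes, Elovl6, Srebf1 and Abca1 among them, the sign held in all 12 alternatives, and in 19 it did not. For Elovl6, Srebf1 and Abca1 the groups did not overlap in CPM, so leaving out 1 library could hardly change the sign. The value of Ebp was -0.25 and -0.27 and that of Sc5d -0.0039 and -0.0040 with limma (pseudocounts 1 and 0.1), and Fasn, at 0.0021 in edgeR, stood at -0.0020 with RLE, -0.0024 with DESeq2, -0.0062 and -0.0063 with limma and -0.0015 with the replicate block. With 1 library left out, the log2 fold change ran from -0.057 to 0.064 for Srebf2, from -0.17 to 0.084 for Scap, from -0.20 to 0.027 for Insig2, from -0.087 to 0.16 for Hmgcs1, from -0.049 to 0.15 for Mvk, from -0.041 to 0.44 for Pmvk, from -0.60 to 0.38 for Mvd, from -0.017 to 0.15 for Idi1, from -0.058 to 0.082 for Sqle, from -0.031 to 0.25 for Lss, from -0.13 to 0.075 for Cyp51, from -0.14 to 0.098 for Msmo1, from -0.19 to 0.023 for Nsdhl, from -0.17 to 0.21 for Ebp, from -0.029 to 0.060 for Sc5d, from -0.0087 to 0.068 for Acaca, from -0.078 to 0.051 for Fasn, from -0.10 to 0.093 for Scd, from -0.19 to 0.046 for Fads2. In the 11 genes that kept their sign it ran from 0.035 to 0.10 for Srebf1, from 0.041 to 0.15 for Insig1, from -0.16 to -0.023 for Fdps, from 0.035 to 0.19 for Fdft1, from 0.055 to 0.42 for Hsd17b7, from -0.36 to -0.083 for Dhcr7, from -0.26 to -0.026 for Acly, from -0.54 to -0.30 for Elovl6, from 0.078 to 0.18 for Fads1, from 0.13 to 0.22 for Abca1, from -0.085 to -0.034 for Cyp46a1. The causes were not tested.

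The deviations from the group means of libraries with one replicate number correlated at -0.22, -0.05 and -0.18 (RNA) and 0.12, -0.15 and -0.03 (small RNA). The numbers thus showed no steady pairing, but with 3 libraries per group this check cannot exclude one. With the replicate block 0 genes and 0 miRNAs were called, and the median of the 30 genes was 0.01. The lowest counts among the 30 genes were those of Mvd (11 to 47), and how far depth sets the error of single genes was not tested.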
